A study of Rattus norvegicus with 8 samples.

Results

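Matrix metalloproteinases are zinc enzymes that cut the proteins of the extracellular matrix, and TIMP1 is a secreted protein that binds and blocks many of them. The enzymes are made as inactive proforms, and in skin wounds they are known for loosening the matrix so that keratinocytes, leukocytes and vessels can move through it. Measured here were 6 genes of the family, Mmp2, Mmp3, Mmp8, Mmp9, Mmp12 and Mmp13, together with Timp1. They were chosen by their Ensembl gene IDs, which the array prints in the name of each probe. The pairing of ID and symbol was given with the choice of genes, and the files hold the IDs alone. They are 7 of the 19752 Ensembl genes on the array, and 21 of its 38948 probes carry their IDs, with 2 probes each for Mmp2, Mmp9 and Timp1, 3 each for Mmp8 and Mmp13, 4 for Mmp12 and 5 for Mmp3.

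RNA was taken from skin of pups of Long-Evans rats, a hooded outbred stock. Pups of the wounded group had a 3-mm cut made on the back at 3 days of age and were sampled at the cut 36 h after it. The control group was skin from the matching place on pups that had not been cut, whose age is not given separately. There were 4 samples per group and 1 one-colour array per sample. The labels do not say whether each sample was a separate animal or a pool, so the spread behind each p-value is that between samples of unstated origin and may be technical. No sample received chemotherapy, although the title of the study is about hair loss under chemotherapy.

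The scanner software found between 43.5% and 51.4% of the probes on an array. Arrays of one group correlated at a Pearson r of 0.955 or more over the features. Control 1 and wounded 4 were singled out because the numbers in their sample titles fall outside the run of the other 6 arrays. Their deviations correlated at r = 0.403 over features, the highest value for any pair of a control and a wounded array. Their title numbers are not near each other, so fitting them together as a block rests on an assumption. Values without them are given where a call changes. All controls were scanned before all wounded samples, so scan order and group cannot be told apart. The fixed lists of other metalloproteinases and inhibitors, of plasminogen activation and of skin and immune cell markers could not be matched, because no table at hand pairs their symbols with IDs of the array. The labelled tissue was therefore not checked against skin markers.

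Of the 6 metalloproteinase genes, 4 (Mmp13, Mmp12, Mmp3 and Mmp8) stand in this order near each other on rat chromosome 8, while Mmp9 lies on chromosome 3, Mmp2 on 19 and Timp1 on X (RefSeq, GRCr8). RefSeq promoter sequences were matched by symbol for 5 of the 7 genes, Mmp3, Mmp8, Mmp12, Mmp13 and Timp1, and the 250 bases before the annotated start were searched on both strands. The 3 sequences printed here are those that hold the letters TGANTCA, with N any base. These letters are a looser form of the consensus of the AP-1 factors formed by Fos and Jun proteins. Each of the 3 sequences belongs to a gene that was found on no control array, but so does the Mmp8 sequence, which lacks those letters. Capitals mark those letters.
Mmp13, GRCr8 chr8:12782579-12782828, plus strand: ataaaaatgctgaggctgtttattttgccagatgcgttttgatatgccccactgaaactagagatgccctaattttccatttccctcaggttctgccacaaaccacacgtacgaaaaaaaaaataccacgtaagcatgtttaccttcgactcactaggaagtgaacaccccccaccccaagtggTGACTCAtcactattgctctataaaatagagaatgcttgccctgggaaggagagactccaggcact
Mmp12, GRCr8 chr8:12866402-12866651, plus strand: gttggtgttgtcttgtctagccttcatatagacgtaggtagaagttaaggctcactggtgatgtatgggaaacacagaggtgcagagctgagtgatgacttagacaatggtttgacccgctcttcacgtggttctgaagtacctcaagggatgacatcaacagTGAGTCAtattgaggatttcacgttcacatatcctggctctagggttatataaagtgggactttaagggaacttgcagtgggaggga
Mmp3, GRCr8 chr8:12925031-12925280, plus strand: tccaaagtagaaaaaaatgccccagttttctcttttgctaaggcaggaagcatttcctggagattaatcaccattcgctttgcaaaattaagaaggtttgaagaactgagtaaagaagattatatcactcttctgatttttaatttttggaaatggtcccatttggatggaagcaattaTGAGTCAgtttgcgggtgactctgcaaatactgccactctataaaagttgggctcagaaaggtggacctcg
Counted from the start, with -1 the base before it, the match lay at -66 to -60 in Mmp13, -87 to -81 in Mmp12 and -71 to -65 in Mmp3. Each gene had 1 match, and in each a TATAAA followed it closer to the start. The letters TGANTCA were present in 6.34% of all 33469 promoter windows of this length, and TATAAA or its reverse in 12.9%. The windows of Mmp8 and Timp1 do not hold TGANTCA. Mmp8 had 1 match to TTCNNNGAA, the letters of STAT factor sites, which 7.67% of windows hold, and a TATAAA on the other strand. These are matches of letters and no measure of binding.

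Signals are log2 values after background correction with an offset of 50 and quantile normalization, so an empty spot reads slightly under 6. A gene is represented by its brightest probe among those found on at least 4 of the 8 arrays. By that rule each of the 7 genes was tested, but Mmp3, Mmp8, Mmp9, Mmp12 and Mmp13 passed it through the wounded arrays alone. For these 5 genes none of 17 probes was found on any control array, so their control level has only an upper bound and the fold is given as "at least". The bound is the plain difference of the group means and takes no account of sample-to-sample spread. It is also not a detection limit, since a spot that was not found could read higher. An untested Mmp13 probe read 6.36 in wounded 1 without being found. The test was limma's, 2-sided, with Benjamini-Hochberg adjustment over 12769 features and a threshold of 0.05. Each of the 7 genes passed in the direction of wounded skin, against 8.01% of all features. None was called lower, against 9.65% of features. The median log2 fold change was 3.17 over the 7 genes and -0.05 over all features. Since 5 of the 7 entered the test through the group in which they are bright, these counts describe the genes and support nothing further. In whole skin, more cells of a type and more RNA per cell cannot be told apart.

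**Figure D1:**
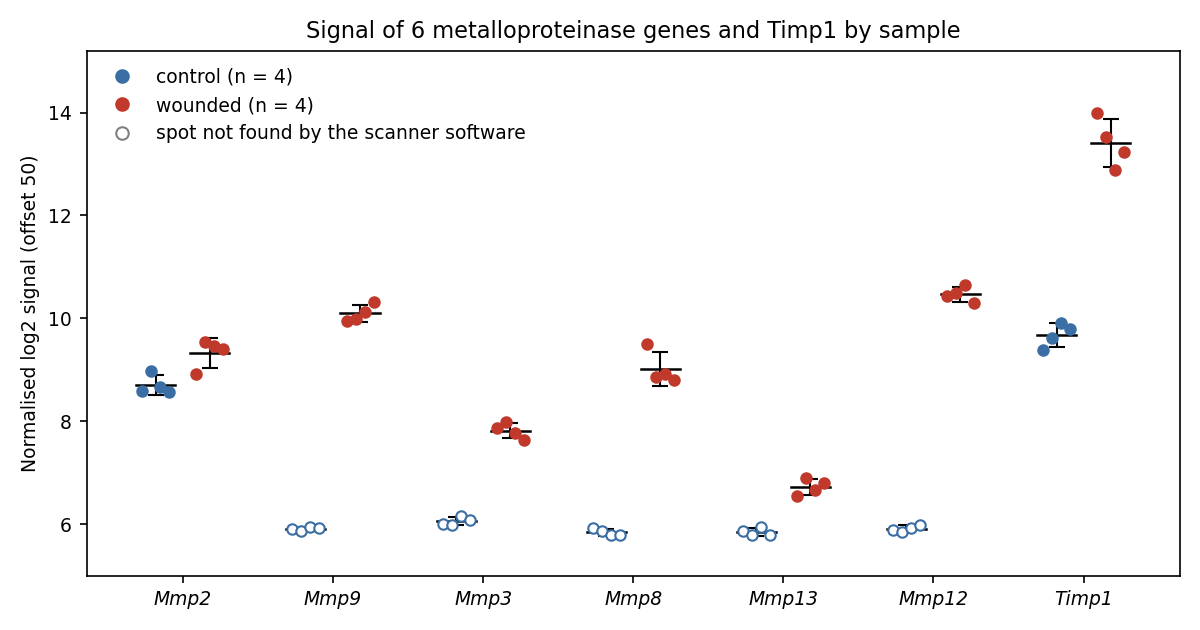
Normalised log2 signal (vertical axis) of the brightest tested probe of each gene in 4 control (blue) and 4 wounded (red) samples, with mean and SD as black lines; hollow points are spots the scanner software did not find. The groups overlap for Mmp2 and for no other gene, and the control points of Mmp9, Mmp3, Mmp8, Mmp13 and Mmp12 are hollow and lie near 6.

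The gelatinases MMP2 and MMP9 cut denatured collagen and collagen IV of basement membranes. MMP2 is made by fibroblasts under many conditions, while MMP9 is stored in neutrophil granules and induced in keratinocytes and macrophages. The 2 genes stood far apart in these samples. Mmp9 (ENSRNOG00000017539) had log2 signals of 5.91, 5.87, 5.95 and 5.93 in controls 1 to 4 and of 9.95, 9.99, 10.12 and 10.32 in wounded samples 1 to 4. The controls were empty spots and the wounded values lay within 0.37 of each other. In scanner units the spot stood 2 to 6 above its local background in controls and 1045 to 1137 above it in wounded skin. Mmp9 was thus at least 18.1-fold higher in wounded skin, from a mean of 5.92 ± 0.04 to 10.09 ± 0.17 (SD, n = 4; limma adjusted p = 5.16e-12). Its other probe was dimmer and gave 5.86 ± 0.04 in controls and 7.69 ± 0.18 in wounded skin (SD, n = 4), at least 3.56-fold higher. Both probes were found on 0 control and 4 wounded arrays.

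Mmp2 (ENSRNOG00000016695) was the only one of the 6 metalloproteinase genes found on all 4 control arrays. Its brighter probe read 8.60, 8.98, 8.66 and 8.56 in controls 1 to 4 and 8.91, 9.54, 9.47 and 9.40 in wounded samples 1 to 4. Wounded 1 lay below control 2, so the groups overlapped, and the other 3 wounded samples lay above every control. The log2 fold change was 0.63 ± 0.20 (SE), or 1.54-fold with a 95% interval of 1.15 to 2.08 (limma adjusted p = 0.0391). The dimmer probe gave a change of nearly the same size, 0.61 ± 0.24 (SE), from 7.93 ± 0.50 to 8.54 ± 0.31 (SD, n = 4). With each probe fitted as a feature of its own, the limma adjusted p was 0.0479 for the brighter and 0.0996 for the dimmer one. The groups overlapped at the dimmer probe too. Control 1 at 8.38 and control 4 at 8.30 lay above wounded 3 at 8.21, and control 2 was lowest at 7.32.

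The Mmp2 call was not stable, although its direction was. Leaving out 1 sample ended it in 6 of 8 cases, with limma adjusted p-values of 0.0672 to 0.113. These were the cases without control 1, control 3, control 4, wounded 2, wounded 3 or wounded 4. It also ended without control 1 and wounded 4 together (0.105), with every probe tested irrespective of being found (0.0787) and with the sample number as a block (0.0610). The estimate stayed between 0.55 and 0.82 on the log2 scale over 23 alternatives.

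**Figure D2:**
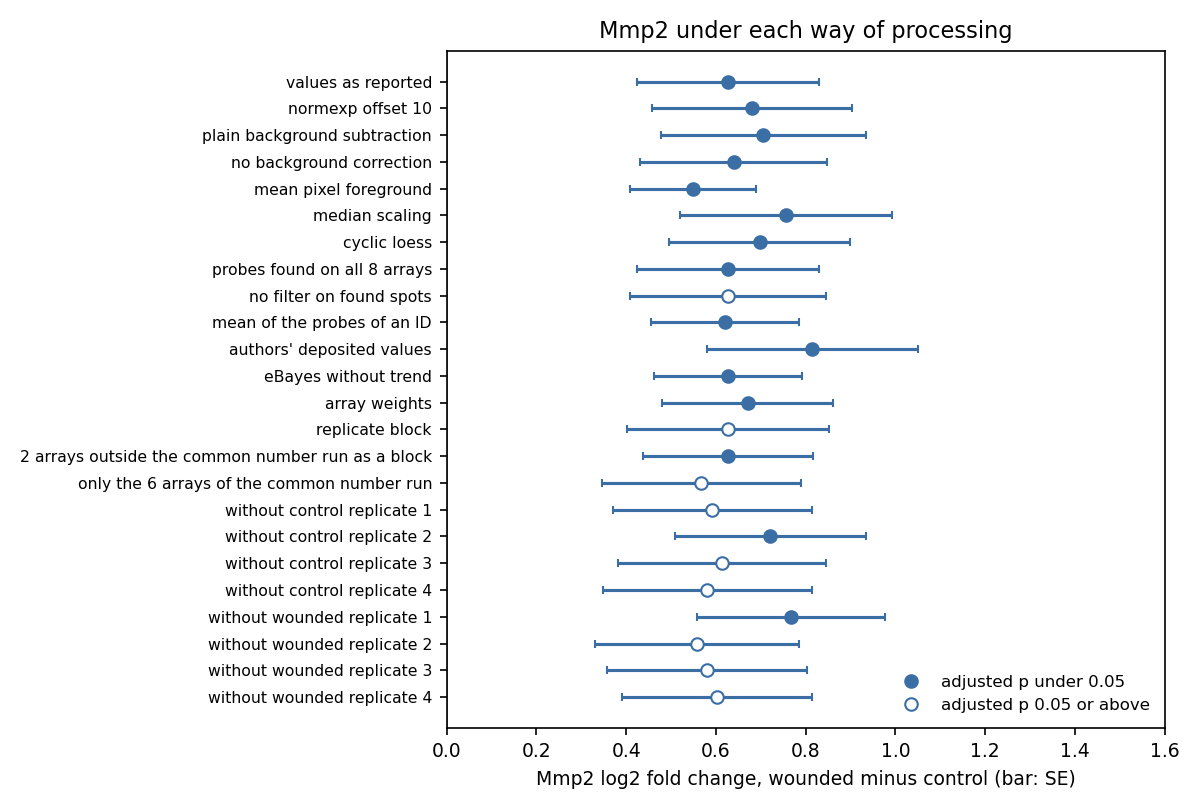
Log2 fold change of Mmp2, wounded minus control (horizontal axis, bars are SE), as reported and under each of 23 alternatives (rows). Filled points have a limma adjusted p under 0.05; the 9 hollow points among the alternatives do not, while every estimate lies between 0.55 and 0.82.

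MMP3, or stromelysin-1, cuts proteoglycans, laminin and other matrix proteins and activates the proforms of other metalloproteinases. In skin it is known from dermal fibroblasts and from basal keratinocytes behind the wound edge. Mmp3 (ENSRNOG00000032626) read 6.01, 5.98, 6.17 and 6.09 in controls 1 to 4 and 7.87, 7.98, 7.77 and 7.64 in wounded samples 1 to 4. The groups did not overlap, and the gap between them was several times the range within either. It was at least 3.38-fold higher in wounded skin, from 6.06 ± 0.08 to 7.82 ± 0.15 (SD, n = 4; limma adjusted p = 4.11e-08). Above the local background the spot had 6 to 15 units in controls and 134 to 226 in wounded skin.

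None of the 5 probes of Mmp3 was found on a control array. The next 2 in brightness were found on 4 wounded arrays and were at least 2.65-fold and at least 1.96-fold higher there. The fourth was found on 3 wounded arrays and the fifth on 1, and neither was tested. At each of the 5 probes the 4 wounded values lay above the 4 control values.

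The collagenases MMP8 and MMP13 open the triple helix of fibrillar collagen. MMP8 is the collagenase of neutrophil granules, and MMP13 is the main interstitial collagenase of fibroblasts and keratinocytes in rodents. Mmp8 (ENSRNOG00000009907) read 5.93, 5.87, 5.79 and 5.79 in controls 1 to 4 and 9.51, 8.85, 8.91 and 8.79 in wounded samples 1 to 4. The controls were again empty spots, at -1 to 4 units above local background, against 371 to 794 in wounded skin. It was at least 9.0-fold higher in wounded skin, from 5.85 ± 0.07 to 9.02 ± 0.33 (SD, n = 4; limma adjusted p = 6.51e-10). At its other probes it was at least 6.25-fold and at least 4.15-fold higher.

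On the scale with the offset, Mmp8 varied more among wounded samples than Mmp3, Mmp9, Mmp12 or Mmp13 did at their brightest tested probes. Timp1 varied more than Mmp8 (SD 0.47 against 0.33, n = 4). The offset narrows the spread of dim spots. In the authors' deposited values the wounded samples ran from 8.62 to 9.44 for Mmp8 and from 5.2 to 5.94 for Mmp13. Wounded 1 was the highest wounded sample at each of the 3 Mmp8 probes, at 9.51, 9.56 and 8.67. The other wounded samples spanned 8.79 to 8.91 at the brightest probe, 7.88 to 8.34 at the second and 7.48 to 7.87 at the dimmest. Without wounded 1 the log2 fold change was 3.01 in place of 3.17 (limma adjusted p = 3.21e-10). On the array of wounded 1 the scan had 55 bad spots, but 0 of the spots of these 21 probes were marked bad on any array. Wounded 1 was also highest at the brighter Timp1 probe, but not at the brightest probe of Mmp9, Mmp3, Mmp13 or Mmp12. At the second probe in brightness, wounded 1 was highest for Mmp12 and Mmp3 but not for Mmp2, Mmp9, Mmp13 or Timp1.

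**Figure D3:**
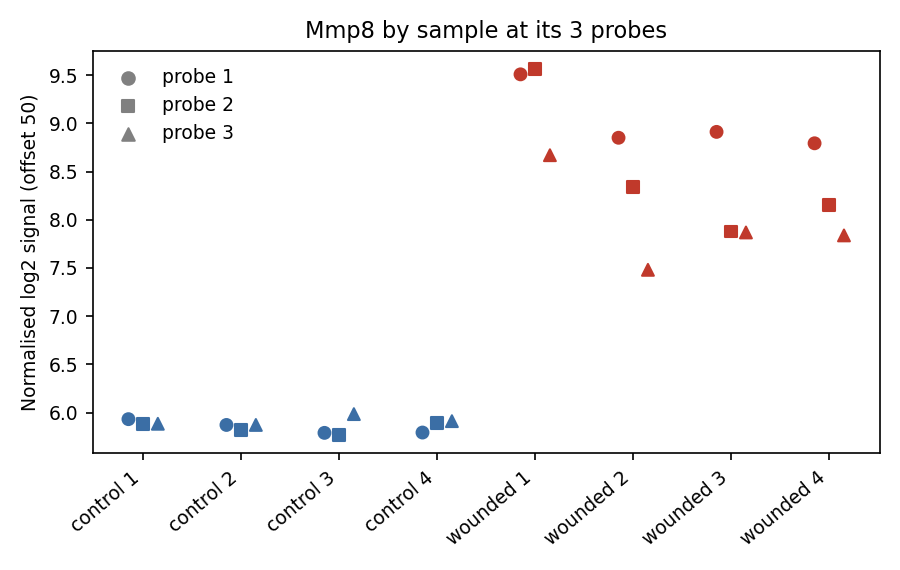
Normalised log2 signal (vertical axis) of the 3 Mmp8 probes (symbols, probe 1 the brightest) in each of the 8 samples (horizontal axis; blue control, red wounded). Wounded 1 is the highest sample at each probe, and the control points of the 3 probes lie between 5.77 and 5.98.

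Mmp13 (ENSRNOG00000008478) had faint spots. It read 5.86, 5.79, 5.95 and 5.79 in controls 1 to 4 and 6.54, 6.89, 6.67 and 6.79 in wounded samples 1 to 4. The groups did not overlap, but the wounded spots stood only 37 to 73 units above local background, against -1 to 6 in controls. The rise was at least 1.83-fold, from 5.85 ± 0.08 to 6.72 ± 0.15 (SD, n = 4; limma adjusted p = 1.79e-06). Of its other probes, one was found on 3 wounded arrays and not tested, and the other was found on 4 and was at least 1.57-fold higher.

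MMP12 is the macrophage elastase, which cuts elastin and other matrix proteins. Mmp12 (ENSRNOG00000030187) read 5.88, 5.84, 5.93 and 5.99 in controls 1 to 4 and 10.43, 10.49, 10.64 and 10.30 in wounded samples 1 to 4. Control spots stood 1 to 9 units above local background and wounded spots 1127 to 1627. It was at least 23.5-fold higher in wounded skin, from 5.91 ± 0.06 to 10.47 ± 0.14 (SD, n = 4; limma adjusted p = 2.51e-12). The wounded values lay within 0.34 of each other. A second probe, with 0 to 2 units above background in controls and 1224 to 1864 in wounded skin, was at least 25.6-fold higher.

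The other 2 probes of Mmp12 did not show a rise of that size. One was found on 3 wounded arrays, with 8 to 66 units above background. Its 4 wounded values lay above its 4 control values, with a log2 difference of 0.77. With no filter on found spots it passed (limma adjusted p = 0.000548). The other was found on none of the 8 arrays, at 1 to 7 units in wounded skin and -1 to 6 in controls. Neither probe met the minimum of 4 arrays for the main test, and whether they match the Mmp12 transcript was not examined.

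**Figure D4:**
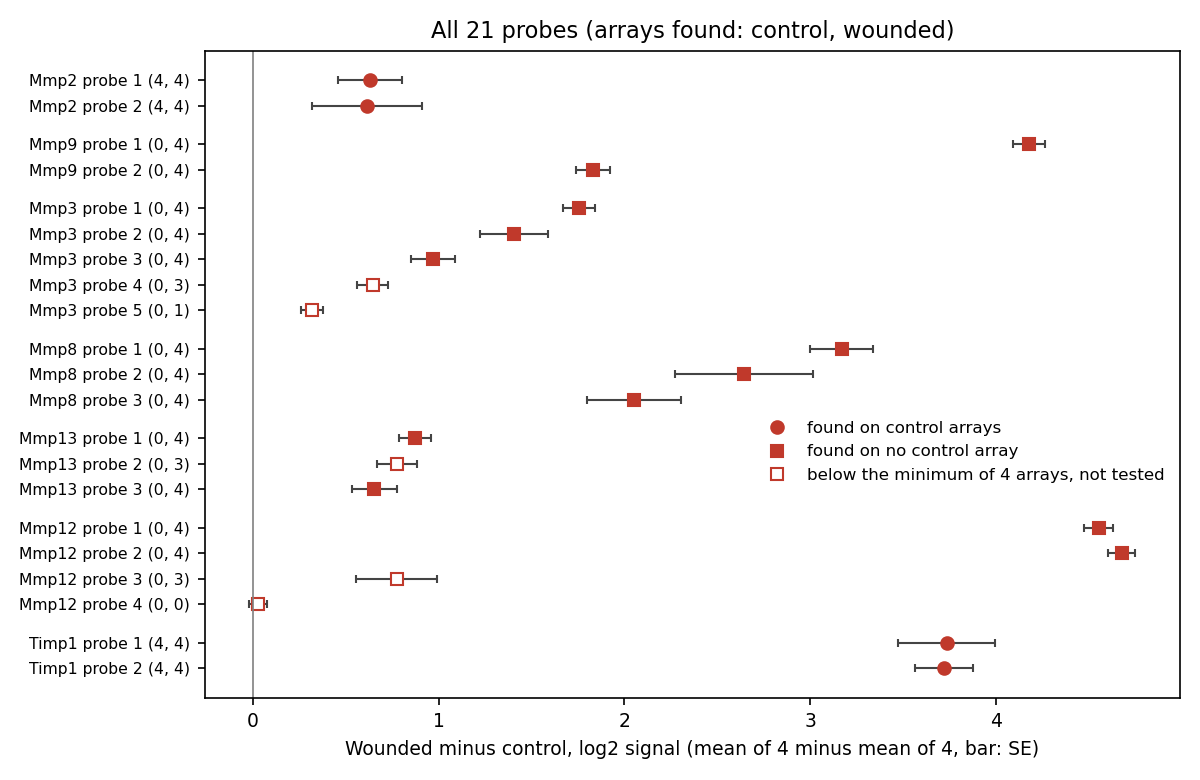
Difference of mean log2 signal between 4 wounded and 4 control samples (horizontal axis, bars are SE) for each of the 21 probes, ordered by brightness within a gene; brackets give the number of control and wounded arrays on which the probe was found. The 2 Timp1 probes and the 2 Mmp2 probes each give nearly equal differences, while the differences at the probes not found on control arrays (squares) rest on a control level that is only an upper bound.

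Timp1 (ENSRNOG00000010208) was found on every array at both of its probes. TIMP1 is secreted by fibroblasts, keratinocytes and leukocytes and binds most of the metalloproteinases named here. Its brighter probe read 9.39, 9.61, 9.92 and 9.79 in controls 1 to 4 and 14.00, 13.52, 12.89 and 13.23 in wounded samples 1 to 4. The lowest wounded value was 2.97 above the highest control value. In scanner units the spot stood 462 to 932 above local background in controls and 7828 to 17981 in wounded skin. The log2 fold change was 3.73 ± 0.24 (SE), or 13.3-fold with a 95% interval of 9.45 to 18.8 (limma adjusted p = 1.97e-09). Both groups were measured, so this is an estimate and not a bound.

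The dimmer Timp1 probe gave 3.72 from 7.98 ± 0.20 to 11.70 ± 0.24 (SD, n = 4). The probes did not order the wounded samples alike. Wounded 1 was highest and wounded 3 lowest at the brighter probe, while wounded 3 was highest and wounded 2 lowest at the dimmer one. Differences among the wounded samples in Timp1 were therefore not shared by its probes. Among the 9498 features found on all 8 arrays, Timp1 had the 17th largest log2 fold change and Mmp2 the 607th.

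Timp1 and Mmp2 are the 2 genes measured in both groups, so their changes can be set against each other within an array. The difference of their log2 signals, Timp1 minus Mmp2 at the brighter probes, was larger by 3.11 in wounded skin than in controls and higher in 4 of 4 wounded samples. An exact 2-sided permutation test over the samples gave p = 0.0286, the smallest value that 4 against 4 samples allow, and the test was chosen after the values had been seen. The other 3 pairings of their probes gave 3.09 to 3.12 with the same exact permutation p. The 4 pairings share probes and arrays, and their p-values were not adjusted. No such comparison was made for the 5 genes whose control level is a bound.

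Set against the background of all features, 4 of the 7 genes were called and at least 4-fold higher (Mmp8, Mmp9, Mmp12 and Timp1), against 1.07% of features. The 4 wounded values lay above the 4 control values in 6 of the 7 genes, against 8.78% of features. The 5 genes found on 0 control and 4 wounded arrays compare with 1.27% of features. With each probe fitted on its own, 15 of the 16 tested probes were called higher, against 8.09% of probes, and 0 lower, against 8.53%. The exception was the dimmer Mmp2 probe (limma adjusted p = 0.0996). Each of the 14 tested probes other than those of Mmp2 was called in every alternative that tested it. The count moved with the filter, to 2 of 4 tested probes when a probe had to be found on all 8 arrays. With the same 16 probes tested, it moved with the Mmp2 probes alone. It was 14 where the brighter Mmp2 probe was lost too, with an offset of 10 (limma adjusted p = 0.0506), plain background subtraction (0.0550), no background correction (0.0501), the replicate block (0.0754) or without control 1 and wounded 4 (0.116), and without any 1 of control 3, control 4, wounded 2, wounded 3 or wounded 4. It was 16 where the dimmer Mmp2 probe passed, with mean pixels (0.0479) or with control 1 and wounded 4 as a block (0.0464). When no probe was left out for being dim, 18 of the 21 probes passed the limma test, and the 3 that did not were both Mmp2 probes and the Mmp12 probe found on no array. Of the 16 tested probes, 12 were found on 0 control arrays, so they passed the filter through the wounded arrays alone. The same holds for 5 of the 7 genes, and not for features or probes in general. The genes were also chosen with earlier results of these data known, so these shares are descriptions.

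The sizes given for the 5 genes at background in controls depend on how background is treated. With local background subtracted and no offset, their log2 differences were 8.86 for Mmp12, 8.19 for Mmp9, 8.07 for Mmp8, 4.98 for Mmp13 and 4.12 for Mmp3. Mmp13 thus went from the smallest of the 5 to above Mmp3. That setting raises the lowest net intensities to a fixed floor. The floor applied to some controls of Mmp13, at -1 to 6 units, and to none of Mmp3, at 6 to 15. These genes therefore have no fixed order by fold. Timp1 gave 3.83 and Mmp2 0.71 under the same setting, close to their values with the offset. In the authors' deposited table, which holds 16 of the 21 probes, the brightest Mmp12 probe had log2 values of 0.57 to 2.92 in controls and 10.26 to 10.83 in wounded skin. The authors' deposited table gave a log2 difference of 3.95 for the brighter Timp1 probe and 0.82 for the brighter Mmp2 probe.

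Over the 8 arrays the pattern of Timp1 was followed by many features, 235 of them with a Pearson r of at least 0.95. The closest were ENSRNOG00000015441 (r = 0.995) and ENSRNOG00000019854 (r = 0.995), whose symbols the files do not give. Among the metalloproteinases r with Timp1 was 0.990 for Mmp8 and Mmp3, 0.983 for Mmp12, 0.980 for Mmp9, 0.951 for Mmp13 and 0.762 for Mmp2. The arrays form 2 separate groups, so these values mostly restate the difference between wounded and control skin.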

How the data were processed

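Biotin-labelled cRNA was amplified from total RNA and put on Rat MI-Ready arrays, per the labels. The scanner was a GenePix 4000B at 635 nm with a gain of 650, and GenePix Pro 4.1.1.4 read the spots with no normalization, per the file headers. In the deposited scanner files each spot has a linear intensity and a local background intensity. The authors deposited log2 values as well, in 16198 rows, 16079 of which name a probe. For net intensities of at least 64 these match log2 of the background-subtracted median pixel, shifted by a constant on each array, within 0.02 for at least 99.9% of probes. Scale and direction are thus known, and genes were not centred. Their column medians were 6.98 to 7.06. How their rows were chosen is not given in the sources.

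From the scanner files, limma 3.58.1 (R 4.3.3) applied normexp with an offset of 50 to median pixels. Of 40320 spots, 1240 blanks, markers and controls were left out, as were 65 bad spots over the 8 arrays. Values were quantile normalized. Probes found on at least 4 of 8 arrays were kept (19444 of 38948), and the brightest probe stood for an Ensembl ID, giving 12769 features. Wounded and control arrays were compared with lmFit and eBayes with trend, 2-sided, with Benjamini-Hochberg adjustment over all features and a threshold of 0.05. A second fit took each probe as a feature. For a gene found on no control array, the control value on an array was the higher of its own signal and the lowest signal of a found probe. That lowest signal was 5.65 to 5.77 on the control arrays and never exceeded the gene's own signal. Each bound is therefore the plain difference of group means. The limma step was run on simulated data with independent normal spread. Those data did not model empty control spots or genes that pass the filter through the wounded arrays alone. The number of arrays limits the precision.

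Named were all 7 genes with every probe, and the 2 features most like Timp1. The genes, lists and alternatives were chosen with earlier results of these data known. The reference gene table (47357 rows, GRCr8) gives an Ensembl ID in 0 rows, so the lists were not matched. Alternatives covered background, foreground pixel, normalization, filter, probe choice, the authors' values, array weights, the variance model, each sample left out, and blocks.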

Additional observations from a re-analysis of the deposited data

Results flagged for a closer look

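Mmp8 in wounded 1 stood far from the other wounded samples at its brightest probe, with a log2 signal of 9.51 against 8.79 to 8.91. Of 42 sets of 4 values, from 21 probes in 2 groups, this was the only one with such a value. Chance gives such a value in about 1 of every 20 sets, so 1 among 42 is not more than chance gives.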

How the results depend on the processing

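Of 310 values over 23 alternatives, 296 stayed on the same side of the threshold with the same sign or, for counts, within 1.5 times the count reported, and 0 reversed. Mmp3, Mmp8, Mmp9, Mmp12, Mmp13 and Timp1 passed limma's adjusted threshold in every alternative that tested them (largest adjusted p 0.000669, for Mmp13 without a variance trend). Other than Timp1, these genes were found on no control array and entered the test through the wounded arrays alone, so their passing adds no support. The Mmp2 call was lost with no filter on found spots (log2 fold change 0.63, adjusted p 0.0787), with the replicate block (0.63, 0.0610) and in the 6 arrays without control 1 and wounded 4 (0.57, 0.105), a setting chosen after seeing the data. With 3 against 3 arrays, the difference between the changes of Timp1 and Mmp2 was 3.13 with an exact permutation p of 0.1, the smallest such a design allows. Requiring probes found on all 8 arrays left 2 of the 7 genes tested, and 2 called higher, with 625 features higher among 9582 tested. It left 4 probes of the 7 genes tested, of which 2 were called higher. Fitted on its own, the brighter Mmp2 probe lost its call there (adjusted p 0.0517, against 0.0479 as reported), and the cause was not tested. Median scaling gave 761 features lower, and the cause was not tested. As reported, 1023 were higher and 1232 lower.

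Leaving out 1 sample in turn gave 840 to 1058 features higher and 890 to 1321 lower, 6 to 7 genes and 14 to 15 probes higher, and 0 lower. Without control 1 the dimmer Mmp2 probe passed (0.0457) and the brighter did not (0.0861). Log2 fold changes were 0.56 to 0.77 for Mmp2, 1.70 to 1.82 for Mmp3, 3.01 to 3.24 for Mmp8, 4.1 to 4.23 for Mmp9, 4.50 to 4.61 for Mmp12, 0.82 to 0.93 for Mmp13 and 3.54 to 3.91 for Timp1. The change of Timp1 exceeded that of Mmp2 by 2.77 to 3.33. The deviations of samples with the same number had correlations of -0.28 to -0.01, so no pairing by number was seen. The replicate block changed no call of the 7 genes other than Mmp2. Signal over background limits the 5 genes not found in controls, whose log2 differences ranged from 0.76 (Mmp13, mean of probes) to 8.86 (Mmp12, background subtracted).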
